A study of Mus musculus with 8 samples.

Results

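GL7+ B220+ B cells sorted 4 days after a T-independent immunisation (TI) were compared with GL7+ B220+ B cells sorted 4 days after challenge in a T-dependent response of carrier-primed mice (TD). The day and the surface gate were shared, and the form of the antigen and the earlier priming differed. The comparison used 4 of the 8 arrays of the series, 2 for each group, and covered 12422 probe sets after 66 control probe sets were set aside, of which 7253 passed the filter on dim signals and were tested. TI mice received 30 µg of the hapten NP coupled to Ficoll, a polysaccharide, by the intraperitoneal route, and the 2 arrays held pools of 4 and 10 mice. TD mice had been primed with 50 µg of chicken gamma-globulin (CGG) in alum with heat-killed B. pertussis, and 5 weeks later were given 50 µg of soluble NP coupled to CGG. Their 2 arrays held pools of 6 and 9 mice. The other arrays held GL7+ B220+ cells of mice without priming, taken on day 10 after 50 µg of NP coupled to CGG in alum with B. pertussis (TD day 10), and GL7- B220+ resting cells of unimmunised mice. Those values are given beside the comparison as a description. All mice were F1 offspring of the QM and B6 strains, so every group shares that background, which the labels describe no further.

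Antigens with many repeated epitopes such as NP-Ficoll crosslink B cell receptors and can start antibody production without help from T cells, while a protein carrier lets B cells obtain T cell help through CD40 and cytokines. Germinal centres are sites of rapid B cell division and hypermutation that depend on the repressor Bcl6, and GL7 is a surface epitope of these and of other activated B cells. Plasma cell differentiation turns on Prdm1 and Xbp1 and enlarges the endoplasmic reticulum (ER), where immunoglobulin chains are folded, joined by disulfide bonds and glycosylated before export. QM mice were made with a rearranged heavy chain gene whose product binds NP when it is paired with a lambda light chain.

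In all, 53 probe sets were higher in TI and 52 were lower (limma, adjusted p under 0.05), which is 0.731% and 0.717% of the 7253 tested, or 1.45% in all. Of the 105, 87 name 1 gene, 5 several genes and 13 none. At the brightest probe set of each of 5433 genes, 0.736% were called higher and 0.405% lower. Values are intensities, with those under 81 set to that floor, and a fold whose dimmer side has an array at the floor is given as at least that fold. For 22 of the 53 rises and 25 of the 52 falls, 1 or both arrays of the dimmer group were at the floor. Log2 values of the 2 TI arrays had a Pearson correlation of 0.935 across probe sets and those of the 2 TD arrays 0.944, against 0.889 to 0.907 between arrays of different groups. The SD of the log2 difference was 0.545 within TI, 0.501 within TD and 0.646 to 0.708 between groups.

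The counts rest on a spread that all 8 arrays of the 4 groups share, and on each of the 4 arrays compared. With only those 4 arrays in the fit, 0 probe sets passed in limma, with 1313 at an unadjusted p under 0.05, against 1044 in the fit of 8 arrays. Without TI replicate 1 the counts were 20 higher and 8 lower, and without TI replicate 2 they were 0 and 0 (816 at an unadjusted p under 0.05). They were 0 and 1 without TD replicate 1, and 3 and 4 without TD replicate 2. The ratio of 3' to 5' signal of the Gapdh control, a measure of RNA integrity, was 1.24 and 1.68 on the TI arrays, against 0.981 and 0.954 on the TD arrays. With that ratio as a covariate 0 probe sets passed in limma, with 916 at an unadjusted p under 0.05.

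**Figure D1:**
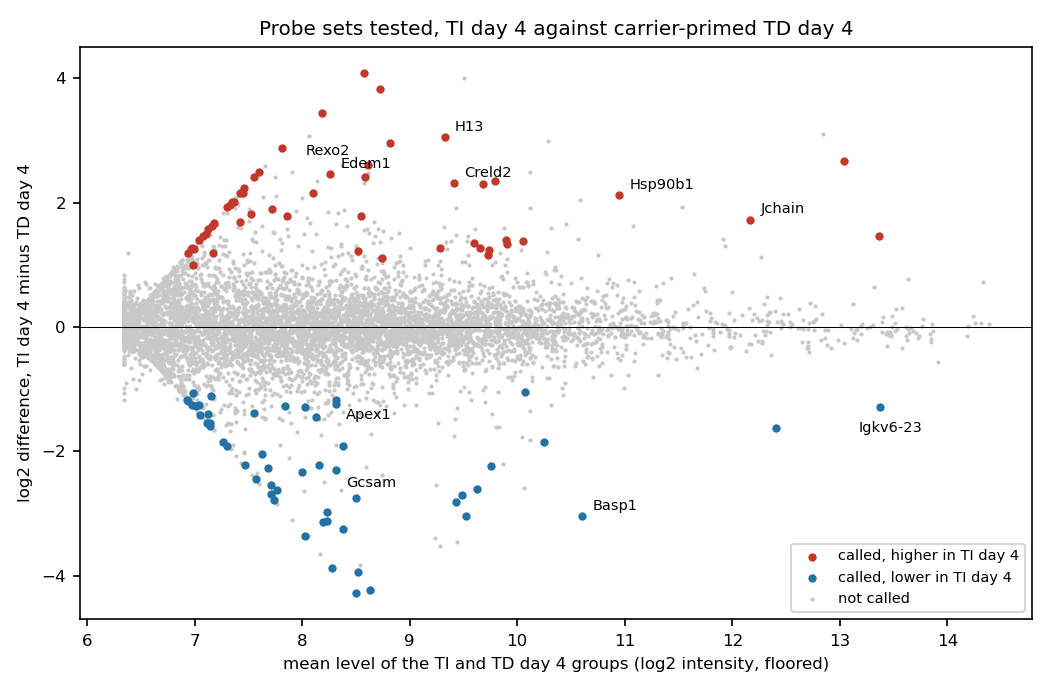
Each point is a probe set tested, with the mean level of the TI and TD groups on the x axis (log2 intensity, values under the floor set to it) and the log2 difference, TI minus TD, on the y axis. The 53 probe sets called higher in TI are red, the 52 called lower are blue, and the dense diagonal edges at the left come from probe sets with 1 group at the floor.

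Genes of plasma cell fate were on the higher side in TI. Of 12 listed genes 8 were on the array and 6 were tested, of which 1 passed, Jchain, and 5 had both TI arrays above both TD arrays, with a median log2 difference of 1.13. With 1 array left out the median lay between 0.93 without TI replicate 2 and 1.77 without TI replicate 1, and 0 of these genes then passed in limma. Over all genes tested 0.736% were called higher, 21.8% had both TI arrays above both TD arrays, 22.9% had both below, and the median was -0.01. Jchain, the chain that joins immunoglobulin polymers, read 7347 and 9356 on the TI arrays, against 2266 and 2770 on the TD arrays. The groups did not overlap, and the rise was 3.31-fold (log2 difference 1.73 ± 0.20 SE, limma adjusted p = 0.021). TD day 10 arrays read 1860 and 2121 and resting arrays 803 and 764. In sorted populations, a larger share of cells of a type and more RNA in each cell cannot be told apart.

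Xbp1, the transcription factor that expands the secretory machinery, read 2072 and 2951 in TI, against 810 and 761 in TD. These arrays did not overlap either, but the difference did not pass (log2 difference 1.66 ± 0.33 SE, limma adjusted p = 0.075). Tnfrsf17, the receptor BCMA of plasma cells, read 563 and 805 in TI, against 256 and 235 in TD (limma adjusted p = 0.055). Irf4, a factor that both germinal centre and plasma cells use, varied as much within groups as between them, at 125 and 516 in TI, against 59 and 263 in TD. Prdm1, which encodes the repressor Blimp-1, read 76 and 63 in TI, against 44 and 66 in TD, all under the floor. The plasma cell surface gene Sdc1 read 106 and 37 in TI, against 67 and 72 in TD, with 1 array above the floor. Neither was tested, so their direction is not known from these arrays.

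Chaperones and folding enzymes of the ER formed the list with the most calls. Of 28 listed genes 22 were tested, of which 5 rose (Hsp90b1, Creld2, Cnpy2, Prdx4 and Dnajc3) and 0 fell, against the 0.736% of all genes called higher. Both TI arrays lay above both TD arrays for 17 of the 22 and below for 2, against 21.8% and 22.9% of all genes. The median log2 difference was 0.81. The median was between 0.64 and 1.04 with any 1 of the 4 arrays left out, although 0 of these genes then passed.

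Hsp90b1, the HSP90 chaperone of the ER lumen, which assists the folding of immunoglobulin chains and Toll-like receptors, read 3734 and 4400 in TI, against 726 and 1195 in TD. The rise was 4.35-fold (log2 difference 2.12 ± 0.26 SE, limma adjusted p = 0.026), and TD day 10 and resting arrays stayed between 970 and 1253. Creld2, an ER protein induced by ER stress, read 1338 and 1708 in TI, against 300 and 306 in TD (4.99-fold, limma adjusted p = 0.013). In both genes the TI arrays stood apart from the other 6 arrays of the series, which lay close together.

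The promoters of these genes are shown because they hold copies of the ER stress response element, to which the factors NF-Y and ATF6 are known to bind. RefSeq windows of build GRCm38.p6 were read from 250 bases before to 50 bases after each gene's start. The window of Hsp90b1 lies at chr10:86705395-86705694 on the minus strand and that of Creld2 at chr15:88819396-88819695 on the plus strand. Each is printed 5′ to 3′ on the gene's own strand, with matches to the element on either strand in capitals, which is CCAAT and CCACG with 9 bases of any kind between them.
Hsp90b1: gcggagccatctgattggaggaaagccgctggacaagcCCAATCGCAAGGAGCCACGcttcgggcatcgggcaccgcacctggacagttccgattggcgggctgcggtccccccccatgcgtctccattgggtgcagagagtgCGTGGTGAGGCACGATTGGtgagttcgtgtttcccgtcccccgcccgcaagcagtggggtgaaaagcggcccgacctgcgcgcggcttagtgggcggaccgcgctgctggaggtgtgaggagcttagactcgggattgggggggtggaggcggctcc
Creld2: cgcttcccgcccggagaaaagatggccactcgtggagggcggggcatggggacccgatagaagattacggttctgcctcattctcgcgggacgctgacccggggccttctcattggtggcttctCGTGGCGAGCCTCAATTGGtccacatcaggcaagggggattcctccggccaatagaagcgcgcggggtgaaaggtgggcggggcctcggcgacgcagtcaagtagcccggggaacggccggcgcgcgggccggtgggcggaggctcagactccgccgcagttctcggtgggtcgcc
Hsp90b1 has 2 copies, which begin 212 and 107 bases before the start, the second of them on the opposite strand. Creld2 has 1 copy, 126 bases before the start and on the opposite strand.

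Of the 46 genes called higher in TI 37 had a window, and 3 of these (8.11%) held the element, namely Hsp90b1, Creld2 and Dnajc3. Among genes with a window, it was found in 0 of 24 called lower, in 10 of 4356 tested (0.23%) and in 37 of all 27025 in RefSeq (0.137%). A gene with several windows was counted once. Of the 10, 7 belong to the ER folding list, where 20 genes had a window. The other 4 are Hspa5, Canx, Pdia6 and Ero1b, none of which passed. Hspa5, the ER chaperone BiP, read 1983 and 2037 in TI, against 1008 and 1356 in TD, a log2 difference of 0.78 ± 0.19 SE (limma adjusted p = 0.13). Canx, the lectin chaperone calnexin, read 855 and 820 in TI, against 962 and 999 in TD. The sequence TGACGTGG, which the spliced form of XBP1 is known to bind, was found on either strand in 1 of the 37 genes called higher with a window, Isg20, and in 1.29% of all tested. Its core ACGTG, which lies within it, was in 45.9% of genes called higher with a window, 54.2% of those called lower and 29.8% of all tested.

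The remaining 3 of the folding genes that passed did so with folds between 3 and 4. Cnpy2, an ER protein of the canopy family, read 360 and 453 in TI, against 117 and 100 in TD (3.73-fold, limma adjusted p = 0.026). Prdx4, the peroxiredoxin of the ER that turns peroxide into disulfide bonds, read 634 and 758 in TI, against 194 and 210 in TD (3.43-fold, limma adjusted p = 0.035). Dnajc3, a cochaperone of BiP that also restrains the stress kinase PERK, passed at 2 probe sets, with 363 and 504 in TI, against 143 and 107 in TD, at the first, and 270 and 346 in TI, against 86 and 104 in TD, at the second. Its remaining probe set read 138 and 174 in TI, against 112 and 135 in TD, and did not pass. At all 3 probe sets both TI arrays lay above both TD arrays.

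Several disulfide isomerases and related genes had wide differences that did not pass. Txndc5, a thioredoxin-like isomerase, read 3083 and 3950 in TI, against 388 and 500 in TD, a log2 difference of 2.99 ± 0.79 SE that did not pass (limma adjusted p = 0.15). Its 2 resting arrays, 77 and 447, and its TD day 10 arrays, 594 and 289, were further apart than the arrays of the groups compared. Pdia4 read 716 and 931 in TI, against 44 and 223 in TD (limma adjusted p = 0.21). Manf, a secreted protein of the ER stress response, read 1410 and 1824 in TI, against 676 and 422 in TD (limma adjusted p = 0.35). Pdia3, the isomerase that works with calnexin, had both TI arrays below both TD arrays, at 582 and 562 in TI, against 607 and 686 in TD.

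Genes of ER-associated degradation, which returns misfolded proteins to the cytosol, held the largest called rises of the secretory lists. Of 27 listed genes of degradation and of the stress response 16 were tested. Of these 4 rose (H13, Man1b1, Edem1 and Sel1l) and 0 fell, against 0.736% and 0.405% of all genes. Both TI arrays lay above both TD arrays for 8 and below for 4, against 21.8% and 22.9% of all genes. The median log2 difference was 0.38. Edem1, a lectin that selects misfolded glycoproteins, read 639 and 803 in TI, against 128 and 133 in TD (5.49-fold, log2 difference 2.46 ± 0.17 SE, limma adjusted p = 0.0067). H13, the signal peptide peptidase, read 1477 and 2222 in TI, against 183 and 262 in TD (8.27-fold, limma adjusted p = 0.018). Man1b1, a mannosidase that trims glycans of ER clients, read 382 and 540 in TI, against 55 and 57 in TD, at least 5.61-fold (limma adjusted p = 0.018). These 3 genes had TD day 10 arrays between 42 and 155, near the TD day 4 level.

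Sel1l, the adaptor of the HRD1 ubiquitin ligase, read 326 and 308 in TI, against 55 and 75 in TD, at least 3.91-fold (limma adjusted p = 0.0067). Its other probe set, at 77 and 151 in TI, against 110 and 76 in TD, did not separate the groups. Edem2, a mannosidase of the same family as Edem1, read 1078 and 1295 in TI, against 546 and 378 in TD (limma adjusted p = 0.055). Atf4, the transcription factor of the stress arm that runs through translation control, read 2028 and 1923 in TI, against 2043 and 2254 in TD, and its target Ddit3, which encodes CHOP, read 185 and 129 in TI, against 202 and 113 in TD. Herpud1, a membrane component of degradation complexes, read 669 and 639 in TI, against 794 and 701 in TD. These 3 genes did not pass, with log2 differences of -0.12 ± 0.15 SE for Atf4, 0.03 ± 0.42 SE for Ddit3 and -0.19 ± 0.17 SE for Herpud1.

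Import into the ER, N-glycosylation and vesicle transport leaned the same way with few calls. Of 37 listed genes of import and glycosylation 27 were tested, 2 rose (Sec61a1 and Rpn2) and 0 fell. Both TI arrays lay above both TD arrays for 21 and below for 1, with a median log2 difference of 0.39. Among all genes 0.736% were called higher, 21.8% lay apart on the higher side and 22.9% on the lower. Sec61a1, the channel of the ER membrane, read 1314 and 1309 in TI, against 565 and 541 in TD (2.37-fold, limma adjusted p = 0.039). Rpn2, a subunit of the oligosaccharyltransferase, read 1356 and 1701 in TI, against 638 and 569 in TD (2.52-fold, limma adjusted p = 0.035). Other subunits of that enzyme also lay apart without passing: Rpn1 read 1613 and 2160 in TI, against 839 and 783 in TD, and Ostc 937 and 1198 in TI, against 553 and 507 in TD. Dad1, a further subunit, passed at 1 probe set (307 and 384 in TI, against 112 and 85 in TD), and at its brighter one the log2 difference was 0.39 and did not pass.

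Of 39 listed Golgi and vesicle genes 30 were tested, 1 rose, Kdelr1, and 0 fell, where 0.736% of all genes were called higher. Both TI arrays lay above both TD arrays for 15 and below for 4, against 21.8% and 22.9% of all genes. The median log2 difference was 0.27. Kdelr1, the receptor that returns escaped ER proteins, read 1117 and 1436 in TI, against 576 and 555 in TD (2.24-fold, limma adjusted p = 0.042). Gosr2 and Stx5a, SNAREs of the Golgi, behaved unevenly. Gosr2 read 219 and 284 in TI, against -73 and 72 in TD, at 1 probe set, at least 3.08-fold (limma adjusted p = 0.018), and its other 2 probe sets had log2 differences of 0.14 and 0. Stx5a read 522 and 595 in TI, against 141 and 222 in TD (limma adjusted p = 0.060). Outside the lists, and picked after their values were seen, were Yif1a and Selenok. Yif1a, which acts in transport from ER to Golgi, read 411 and 260 in TI, against -64 and -80 in TD, at least 4.04-fold (limma adjusted p = 0.022). Selenok, a selenoprotein of the ER membrane, read 605 and 653 in TI, against 295 and 289 in TD (2.15-fold, limma adjusted p = 0.035). Its other probe set had a log2 difference of 0.11 and did not pass.

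**Figure D2:**
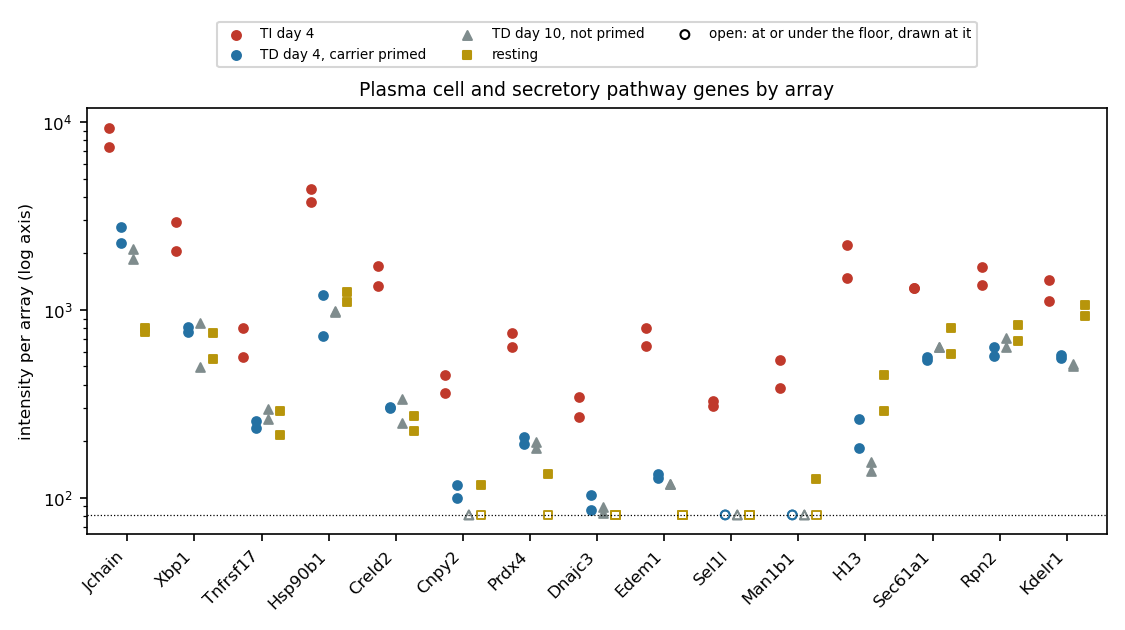
Intensity on each array (y axis, log scale) of 15 plasma cell and secretory pathway genes, with TI day 4 and carrier-primed TD day 4 as circles, TD day 10 as triangles and resting as squares. The dotted line is the floor of 81, and open symbols are arrays at or under it. In every gene drawn both TI arrays lie above both TD day 4 arrays, with Jchain at 7347 and 9356 in TI, against 2266 and 2770 in TD.

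Light chain probe sets differed between the groups in both directions. Their grouping by locus was chosen after these values were seen. A lambda probe set, for which the annotation lists several lambda genes, read 20316 and 21989 in TI, against 2832 and 3894 in TD. The rise was 6.36-fold (log2 difference 2.67 ± 0.20 SE, limma adjusted p = 0.0067), with TD day 10 at 1246 and 1349 and resting at 2919 and 2860. The other lambda probe set, of Iglc1, did not separate the groups, at 357 and -28 in TI, against 561 and 316 in TD. Igll1, the surrogate light chain gene lambda5, whose constant part resembles lambda, read 1554 and 1888 in TI, against 618 and 699 in TD (2.61-fold, limma adjusted p = 0.032). A second Igll1 probe set had a log2 difference of -0.46 and did not pass.

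Most kappa probe sets were lower in TI. Of 35 kappa probe sets 32 were tested, 11 fell and 0 rose, where 0.717% of all probe sets tested were called lower and 0.731% higher. Of the 32, 29 had both TI arrays below both TD arrays, where 23.7% of all probe sets tested did. Their median log2 difference was -1.42, in a range from -4.23 to 3.11. Of the 32, 17 carry the mark of probe sets that detect a family of like sequences, so they share targets and are not independent. Igkv6-14 read 132 and 9 in TI, against 1799 and 2101 in TD, at least 18.8-fold lower (limma adjusted p = 0.0099). A second Igkv6-14 probe set read 67 and 77 in TI, against 97 and 94 in TD, and did not pass. Igkv10-96 fell at all 3 of its probe sets, for example to 128 and 90 in TI, against 1022 and 1016 in TD. Igkv6-23 read 6898 and 6664 in TI, against 16379 and 16768 in TD, a smaller fall of 2.44-fold (limma adjusted p = 0.035).

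Kappa probe sets did not all go one way. A family probe set of Igkv9-120 read 22145 and 20776 in TI, against 2181 and 2835 in TD, a log2 difference of 3.11 ± 0.61 SE that did not pass (limma adjusted p = 0.075), and a second Igkv9-120 probe set read 125 and 145 in TI, against 195 and 173 in TD. Igkv14-111 differed between its own probe sets. One fell, with 95 and 80 in TI, against 545 and 531 in TD (limma adjusted p = 0.026), and a family probe set read 6199 and 6383 in TI, against 2075 and 2672 in TD (limma adjusted p = 0.24). The gene names of family probe sets are uncertain.

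Heavy chain probe sets were mixed. Of 11 Ighm probe sets tested 0 passed in limma, 4 lay apart on the higher side and 6 on the lower, with log2 differences between -2.84 and 0.81. Over all probe sets tested 21.3% lay apart on the higher side and 23.7% on the lower. Ighm, the mu constant region, read 26623 and 26193 in TI, against 14908 and 17256 in TD, at 1 probe set (log2 difference 0.72, limma adjusted p = 0.18) and 15985 and 17178 in TI, against 9290 and 10225 in TD, at another (log2 difference 0.77, limma adjusted p = 0.11). A family probe set of Ighm read 25 and -11 in TI, against 606 and 553 in TD (log2 difference -2.84, limma adjusted p = 0.16). The probe sets named Ighg3, the constant region of IgG3, an isotype typical of responses to polysaccharides, pointed both ways too. One read 1979 and 3036 in TI, against 932 and 909 in TD (log2 difference 1.41, limma adjusted p = 0.058). Another read 977 and 1530 in TI, against 470 and 422 in TD (log2 difference 1.46, limma adjusted p = 0.077). A further one read 519 and 501 in TI, against 362 and 308 in TD (log2 difference 0.61, limma adjusted p = 0.27). A family probe set of the same name fell, with 92 and 95 in TI, against 1301 and 1571 in TD (log2 difference -3.93 ± 0.63 SE, limma adjusted p = 0.046), as did a second one, with 70 and 67 in TI, against 1077 and 1304 in TD (limma adjusted p = 0.034). The 4 lower Ighg3 probe sets all carry the family mark, so their gene name is uncertain, and the higher ones do not carry it. No direction for Ighm or Ighg3 follows from these arrays. Of 22 heavy constant probe sets tested 0 rose and 2 fell, both of them named Ighg3, where 0.731% of all probe sets tested were called higher and 0.717% lower. Of 6 heavy variable ones 0 rose and 1 fell, Ighv3-6, with 50 and 105 in TI, against 476 and 602 in TD (at least 5.80-fold, limma adjusted p = 0.032).

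**Figure D3:**
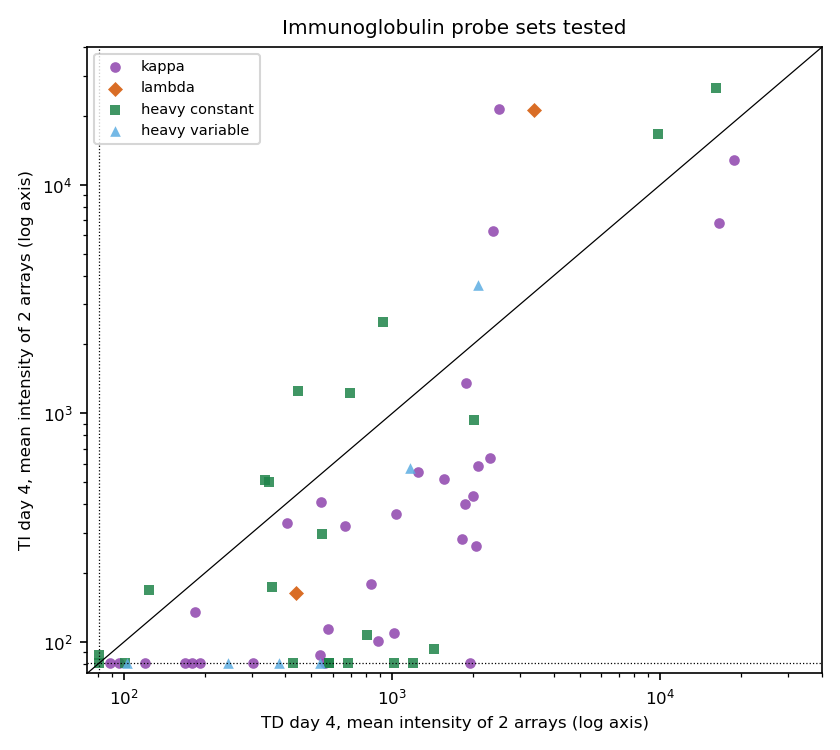
Mean intensity of the 2 TI arrays (y axis) against that of the 2 TD day 4 arrays (x axis), both on log scales, for immunoglobulin probe sets coloured by locus, with the line of equality and dotted lines at the floor of 81. Most kappa probe sets lie below the line, 2 kappa probe sets and the called lambda probe set lie well above it, and heavy chain probe sets lie on both sides.

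Rises outside the secretory pathway were led by single probe sets of genes with unlike roles. Hnrnpu, a nuclear RNA-binding protein, had the largest, with 1358 and 1792 in TI, against 82 and 103 in TD (17.0-fold, limma adjusted p = 0.0050). Its second probe set read 59 and 85 in TI, against 109 and 129 in TD, so the probe sets of this gene disagree, and which of them follows the named gene is not known from these data. The same holds for Tnnt1 and Cmc2. Tnnt1, a slow muscle troponin, read 1401 and 1904 in TI, against 54 and 163 in TD, at least 14.2-fold (limma adjusted p = 0.018), with a log2 difference of -0.32 at its other probe set. Cmc2, a mitochondrial protein, read 1092 and 1437 in TI, against 157 and 165 in TD (7.78-fold, limma adjusted p = 0.026), and -0.27 on the log2 scale at its second probe set. Of 35 called genes with more than 1 probe set tested, 22 had the called sign at every probe set, 13 did not, and in 1, Igkv10-96, every probe set passed.

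Itgae, the integrin chain CD103, read 374 and 350 in TI, against -68 and -65 in TD, at a family probe set, at least 4.47-fold (limma adjusted p = 0.0067), and its other probe set had a log2 difference of 0.34 and did not pass. On the lower side, 2 of 3 family probe sets named Adck1, a mitochondrial kinase-like protein, passed. They read -102 and -101 in TI, against 734 and 951 in TD, at one (at least 10.3-fold lower, limma adjusted p = 0.035), and 146 and 31 in TI, against 801 and 1146 in TD, at the other (at least 8.81-fold lower, limma adjusted p = 0.030). As for the kappa family probe sets, the gene name is uncertain here, so a fall of Adck1 itself does not follow.

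Among genes with 1 probe set, Rexo2, a mitochondrial exonuclease of short RNAs, read 775 and 1171 in TI, against 174 and 142 in TD (6.06-fold, limma adjusted p = 0.012). Isg20, an exonuclease induced by interferon, read 486 and 675 in TI, against 119 and 139 in TD (4.45-fold, limma adjusted p = 0.014). Tent5c, a poly(A) polymerase that stabilises immunoglobulin messenger RNA in plasma cells, read 690 and 1096 in TI, against 165 and 163 in TD (5.30-fold, limma adjusted p = 0.035). These genes process RNA, and in each both TI arrays exceeded the other 6 arrays of the series. Nadk, the kinase that makes NADP, read 645 and 1437 in TI, against 96 and -75 in TD, at least 10.9-fold (limma adjusted p = 0.018). Rap1gap, which inactivates the adhesion GTPase Rap1, read 465 and 786 in TI, against 83 and 54 in TD, at least 7.37-fold (limma adjusted p = 0.028). Gclc, picked after its values were seen, is the catalytic subunit of the first enzyme of glutathione synthesis and read 184 and 201 in TI, against 16 and 63 in TD, at least 2.37-fold (limma adjusted p = 0.031).

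Cd302, a C-type lectin receptor, read 417 and 449 in TI, against 63 and 44 in TD, at least 5.34-fold (limma adjusted p = 0.0099), and resting arrays read 850 and 608, so here TI lay between the TD and resting levels. Hsd3b5, a steroid dehydrogenase known from liver, read 2052 and 1606 in TI, against 355 and 386 in TD (4.90-fold, limma adjusted p = 0.035). Scd2, which desaturates fatty acids, read 1435 and 1636 in TI, against 496 and 685 in TD (2.63-fold, limma adjusted p = 0.035), and its second probe set had a log2 difference of 0.43 and did not pass. It was the 1 gene called of 15 tested of lipid and sterol synthesis, whose median was 0, where 0.736% of all genes were called higher. Slc4a1, the anion exchanger of red cells, read 1700 and 2317 in TI, against 363 and 419 in TD (5.09-fold, limma adjusted p = 0.0099). Haemoglobin did not pass, and its gene Hba-a1 read 508 and 490 in TI, against 285 and 477 in TD, and the red cell genes Alas2, Epb42 and Car1 were under the floor on all 4 arrays. Gata1, a factor of red cell and platelet precursors, read 140 and 221 in TI, against 97 and 14 in TD, at least 1.98-fold (limma adjusted p = 0.13), and Klf1, a factor of red cell precursors, lay the other way at 797 and 798 in TI, against 1257 and 917 in TD. Of the 8 red cell genes tested 3 lay apart on the higher side and 2 on the lower, against 21.8% and 22.9% of all genes.

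In receptor signalling, Nfatc1, a transcription factor released by calcium after receptor crosslinking, read 1097 and 842 in TI, against 393 and 403 in TD (2.41-fold, limma adjusted p = 0.039). TD day 10 arrays read 220 and 266 and resting arrays 382 and 356. Of 30 listed genes of B cell receptor signalling 21 were tested, Nfatc1 alone rose, 0 fell, and the median log2 difference was 0.13. Among all genes 0.736% were called higher. Cd81, a tetraspanin of the B cell surface, read 1245 and 1391 in TI, against 837 and 752 in TD, and Ptpn6, the phosphatase SHP-1, read 2635 and 2948 in TI, against 1624 and 1755 in TD. Cd72, an inhibitory coreceptor, lay on the other side, at 427 and 373 in TI, against 699 and 985 in TD. Of these, Cd81, Ptpn6 and Cd72 did not pass (limma adjusted p = 0.097, 0.11 and 0.077). Of 20 CD40 and NF-kB genes tested 0 passed in limma, with a median of -0.11. On the higher side 4 lay apart and on the lower 7, against 21.8% and 22.9% of all genes. Of 13 cytokine receptor and STAT genes and of 12 MHC class II genes also 0 passed, with medians of 0 and -0.01.

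Genes of the germinal centre programme were on the lower side in TI, with 1 call. Of 18 listed genes 12 were tested, 0 rose, 1 fell, Gcsam, and 7 had both TI arrays below both TD arrays (1 above), where 0.405% of all genes were called lower and 22.9% lay apart on that side. Gcsam, a signalling adaptor that restrains the migration of germinal centre B cells, read 156 and 131 in TI, against 753 and 661 in TD (4.94-fold lower, log2 difference -2.30 ± 0.30 SE, limma adjusted p = 0.028). The TI arrays lay at the resting level, 154 and 101, and the TD day 10 arrays at 768 and 501. Bcl6 read 846 and 1034 in TI, against 1409 and 1236 in TD, a log2 difference of -0.50 ± 0.17 SE that did not pass (limma adjusted p = 0.26). Lmo2, a transcriptional adaptor used as a germinal centre marker, read 459 and 383 in TI, against 668 and 682 in TD (limma adjusted p = 0.13). Cd83, a surface protein of light zone cells, read 830 and 570 in TI, against 1104 and 1048 in TD (limma adjusted p = 0.25). The median of the list was -0.17, and lay between -0.29 and -0.08 with any 1 of the 4 arrays left out.

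Basp1, a membrane protein that binds calmodulin, read 584 and 495 in TI, against 5311 and 3677 in TD, at 1 probe set (8.22-fold lower, limma adjusted p = 0.0067). The 2 resting arrays read -26 and 6 there. At its other probe set Basp1 read 2309 and 2909 in TI, against 4183 and 3961 in TD, in the same direction, and did not pass (log2 difference -0.65). Slpi, a protease inhibitor of mucosa and leukocytes, read 130 and 87 in TI, against 761 and 912 in TD (7.83-fold lower, limma adjusted p = 0.014), and its 2 other probe sets had log2 differences of -0.36 and -0.20. Ids, a lysosomal sulfatase, read 105 and 174 in TI, against 1176 and 697 in TD (6.70-fold lower, limma adjusted p = 0.033), and its second probe set had a log2 difference of -0.20. A probe set with no gene in the annotation had the largest fall, with 78 and 57 in TI, against 1986 and 1244 in TD, at least 19.4-fold (limma adjusted p = 0.0052). It read 3567 and 3923 on TD day 10 arrays and 25 and 35 on resting arrays, so the TI and resting arrays were all under the floor.

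**Figure D4:**
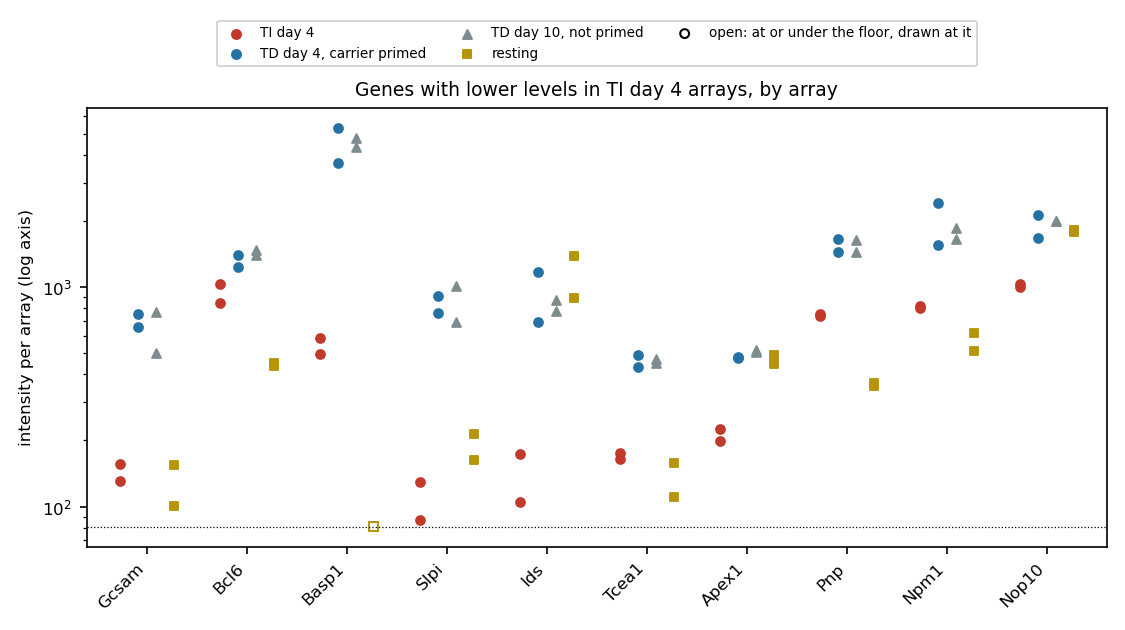
Intensity on each array (y axis, log scale) of 10 genes with lower levels in TI, with TI day 4 and carrier-primed TD day 4 as circles, TD day 10 as triangles and resting as squares, and open symbols at or under the floor of 81 (dotted line). Gcsam, Basp1, Slpi, Ids, Tcea1, Apex1 and Pnp passed in TI against TD day 4, and Bcl6, Npm1 and Nop10 did not. In all 10 both TI arrays lie below both TD day 4 arrays.

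Further falls, picked from the called genes after their values were seen except for Apex1, were the following. Apex1, the endonuclease of base excision repair, read 198 and 225 in TI, against 473 and 482 in TD (2.26-fold lower, limma adjusted p = 0.028). Tcea1, an elongation factor of RNA polymerase II, fell at 2 of its 3 probe sets, with 175 and 164 in TI, against 433 and 493 in TD, at one and 114 and 118 in TI, against 280 and 330 in TD, at the other. The remaining probe set of Tcea1 had a log2 difference of -0.56 and did not pass. Pnp, purine nucleoside phosphorylase, read 753 and 742 in TI, against 1655 and 1446 in TD (2.07-fold lower, limma adjusted p = 0.037). Adss, adenylosuccinate synthase, read 143 and 152 in TI, against 318 and 396 in TD (2.41-fold lower, limma adjusted p = 0.033), and its second probe set had a log2 difference of -0.64 and did not pass. Dguok, mitochondrial deoxyguanosine kinase, read 77 and 109 in TI, against 468 and 439 in TD, at least 4.82-fold (limma adjusted p = 0.0099), with -0.30 on the log2 scale at its second probe set. Pno1, a factor of ribosome assembly, read 67 and 97 in TI, against 217 and 204 in TD, at least 2.37-fold (limma adjusted p = 0.028). Ruvbl2, a helicase that assembles chromatin and snoRNP complexes, read 189 and 146 in TI, against 435 and 376 in TD (2.43-fold lower, limma adjusted p = 0.035).

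Lists of growth genes leaned the same way by small amounts. Of 25 MYC target and nucleolar genes tested 1 fell, Apex1, 0 rose, and 15 had both TI arrays below both TD arrays, with a median log2 difference of -0.39. Among all genes 0.405% were called lower and 22.9% lay apart on that side. Npm1, the nucleolar chaperone nucleophosmin, read 823 and 801 in TI, against 1550 and 2423 in TD (limma adjusted p = 0.075). Nop10, a component of snoRNPs, read 998 and 1038 in TI, against 2133 and 1675 in TD (limma adjusted p = 0.071). Of 31 proteasome genes 0 passed in limma and 16 lay apart on the lower side, where 22.9% of all genes did, with a median of -0.31. Psmd4, the ubiquitin receptor of the regulatory particle, read 110 and 187 in TI, against 336 and 351 in TD (limma adjusted p = 0.097). With the arrays scaled by quantiles or to a common median, these medians were -0.46 and -0.40 for the MYC list and -0.30 and -0.32 for the proteasome, and the median over all probe sets moved by 0.01 and -0.01.

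Genes of the cell cycle did not pass. Over all genes 22.9% lay apart on the lower and 21.8% on the higher side. Of 29 DNA replication genes 13 lay apart on the lower and 2 on the higher side, with a median log2 difference of -0.19. Pcna, the sliding clamp, read 2611 and 2685 in TI, against 3789 and 3631 in TD (limma adjusted p = 0.24). Of 23 genes of mitosis 12 lay apart on the higher and 5 on the lower side, with a median of 0.19. Mki67, a marker of cycling cells, had log2 differences of -1.06 ± 0.35 SE and -0.11 ± 0.34 SE at its 2 probe sets (limma adjusted p = 0.24 and 0.97). Oxidative phosphorylation (26 genes), glycolysis (10), apoptosis (18) and heat shock (14) also had 0 calls in limma at the brightest probe set of a gene, with medians of -0.07, -0.17, -0.04 and -0.22. At a dimmer probe set the heat shock gene Hspa4 fell, with 102 and 49 in TI, against 235 and 244 in TD (limma adjusted p = 0.033). Over its 5 probe sets the log2 differences ran from -1.40 to 0.81. Among the heat shock genes Hspa1a read 2876 and 1709 in TI, against 170 and 912 in TD, and among 18 immediate early genes, of which 0 passed, Fos read 2150 and 1711 in TI, against 250 and 1036 in TD. The spread within TD was wide in both.

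**Figure D5:**
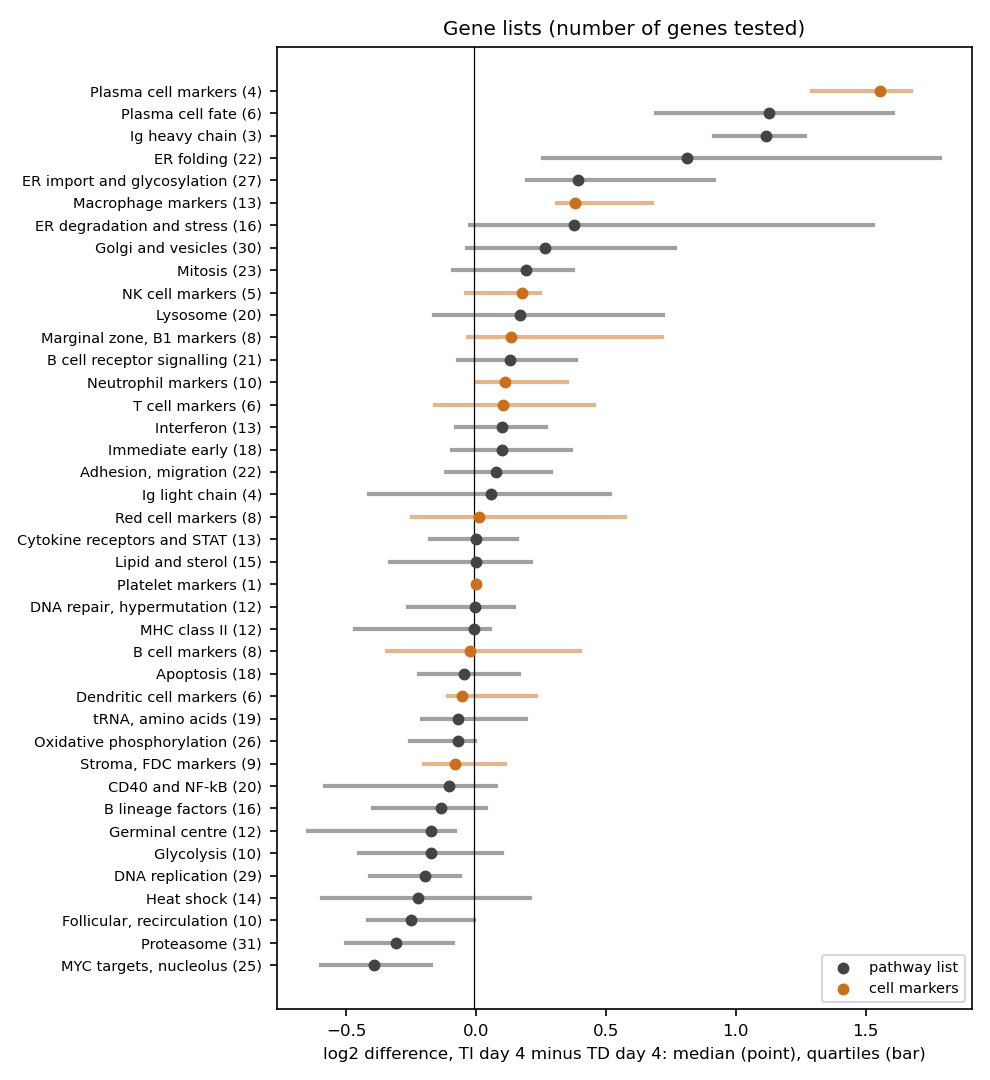
Median (points) and quartiles (bars) of the log2 difference, TI minus TD, over the tested genes of each list at the brightest probe set of a gene, with the number of genes tested in parentheses and the vertical line at the median of all genes. The highest medians are those of plasma cell markers (1.56), plasma cell fate (1.13), the 3 immunoglobulin heavy chain genes (1.12) and ER folding (0.81), and MYC targets and the proteasome lie lowest at -0.39 and -0.31. Both plasma cell lists hold Jchain and are not separate results. The heavy chain median is that of Igha, at 460 and 542 in TI, against 37 and 655 in TD, which overlap. Over all 22 heavy constant probe sets tested the median was -0.75.

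The arrays of both groups carried B cell transcripts. Cd79a, a signalling chain of the B cell receptor, read 4554 and 5183 in TI, against 4635 and 5621 in TD, Pax5, the factor of B cell identity, read 2110 and 2054 in TI, against 2105 and 1992 in TD, and the 8 B cell markers summed to 27248 to 27332 in TI, against 25005 to 27143 in TD. Single members went both ways, with 3 apart on the higher side, such as Cd79b at 7653 and 7796 in TI, against 5995 and 5837 in TD, and 3 on the lower, such as Ptprc at 498 and 376 in TI, against 582 and 898 in TD. Of the 8 markers 0 passed in limma, and over all genes 21.8% lay apart on the higher and 22.9% on the lower side. Plasma cell markers summed to 10289 to 13728 in TI, against 3502 to 4167 in TD, and moved with the secretory genes. Their part in those differences was not tested. Of 16 macrophage markers measured 5 were under the floor on all 4 arrays (Adgre1, Lyz2, C1qc, Marco and Mrc1). Of 13 tested 0 passed, although 7 lay apart on the higher side, where 21.8% of all genes did. All 16 made sums of 9013 to 10589 in TI, against 5651 to 5679 in TD. Apoe, which macrophages and other cells secrete, made up most of that sum's difference, at 4213 and 3371 in TI, against 1305 and 1140 in TD (limma adjusted p = 0.17).

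Red cell markers summed to 3501 to 3995 in TI, against 2225 to 2273 in TD. Slc4a1, the 1 called of 8 tested, made up that difference, at 1700 and 2317 in TI, against 363 and 419 in TD. Neutrophil markers summed to 2777 to 3623 in TI, against 2572 to 2639 in TD, and T cell markers to 1414 to 1428 in TI, against 1306 to 1456 in TD. Of 11 T cell markers measured 5 were under the floor on all 4 arrays (Cd3d, Cd3e, Cd8a, Cd8b1 and Thy1). Cd3g was under it on 3, and others were above it on some or all arrays. Cd4 read 366 and 382 in TI, against 660 and 422 in TD, and Cd2 read 430 and 480 in TI, against 526 and 333 in TD. Of 6 tested 1 lay apart on the higher side and 1 on the lower, against 21.8% and 22.9% of all genes. Markers of marginal zone and B1 cells summed to 4388 to 4462 in TI, against 2874 to 3887 in TD, and Cd5, Spn, Cd1d1 and Cd36 were under the floor on all 4 arrays. The largest readings were those of Plac8, at 1483 and 1696 in TI, against 696 and 1331 in TD. Cd9, which marginal zone, B1 and plasma cells carry, read 312 and 384 in TI, against -16 and -7 in TD (limma adjusted p = 0.060). Cr2 lay the other way, at 230 and 163 in TI, against 235 and 336 in TD. Of 8 of these markers tested 0 passed in limma. Both TI arrays lay above both TD arrays for 4 and below for 2, against 21.8% and 22.9% of all genes. Among control probe sets, the 3' actin to 5' actin ratio was 1.59 and 1.91 in TI, against 1.48 and 1.33 in TD, and the 3' probe set of 18S RNA read 4927 and 5418 in TI, against 2658 and 1722 in TD. The 5' probe set of 18S RNA was also higher, at 2320 and 2325 in TI, against 1563 and 825 in TD. Its middle probe set read 214 and 484 in TI, against 710 and 408 in TD. A 3' probe set of the control BioDn read 520 and 591 in TI, against -118 and 135 in TD. It read -142 and -400 on TD day 10 arrays and 70 and 23 on resting arrays. The 5' probe set of BioDn read -25 and 44 in TI, against -28 and -13 in TD. What set these control readings apart was not tested. Neither RNA integrity nor the handling of the arrays can be told apart from the group in these 4 arrays.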

How the data were processed

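Total RNA from pools of sorted B cells was extracted with RNAzol, biotin-labelled and hybridised to Affymetrix arrays by the standard protocol, per the labels. The authors deposited linear intensities as whole numbers. Of these, 30.1% are 0 or negative, and each array's mean without its lowest and highest 2% is about 200.2. How the authors computed and scaled them is not given in the sources used here, and no further scaling was applied. Array medians lay between 77 and 89.

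Values under the 50th percentile of all values, 81, were set to it and log2 was taken, and probe sets above it on at least 2 of the 8 arrays were kept. limma 3.58.1 under R 4.3.3 fitted 1 model of the 4 groups on 8 arrays (4 residual and 2.20 prior degrees of freedom), with 2-sided tests and Benjamini-Hochberg adjustment at 0.05 over 7253 probe sets. Precision is limited by having 2 arrays a group. The labels call the replicates biological. The method was checked on simulated data.

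Genes were named from GEO's probe annotation, with symbols updated through Entrez identifiers for 10839 of 10855 probe sets with 1 gene. Lists use each gene's brightest probe set. Named genes are the 15 largest rises and 15 largest falls with 1 gene and no overlap of arrays, the called members and the 4 with the smallest p of each list, Bcl6, Mki67 and other fate markers, and immunoglobulin genes, of which the text names part. Names outside this rule were chosen after their values were seen, among them the members of lists given without a call. The comparison and the 40 gene lists were chosen with earlier results of these data known. Proteins were not analysed here.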

Additional observations from a re-analysis of the deposited data

How the results depend on the processing

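The counts of 53 higher and 52 lower probe sets moved by over 1.5 times under several settings. They were 21 and 21 without the filter on dim probe sets, 122 and 139 with array weights, 0 and 0 with only the 4 arrays compared and 0 and 0 with the Gapdh 3' to 5' ratio as a covariate. Leaving out 1 array gave 0 to 20 higher and 0 to 8 lower. With the replicate number as a block they were 30 and 16. Deviations of same-numbered arrays correlated between -0.217 and 0.121 across groups, so same-numbered arrays did not deviate together. For TI and TD the correlation was -0.112, and the crossed pairing, added after seeing the data, gave 16 higher and 14 lower. Quantile scaling, a common median, a stricter filter, a floor at the 40th or 60th percentile, a pseudocount, and a trended and robust prior kept both counts within 1.5 times. The members changed more, since 60 of the 105 were still called with the lower floor, 77 with the higher floor, 77 with the pseudocount and 88 with the trended prior. The cause of the lost calls was not tested. Of the medians of the 40 lists 13 changed sign under at least 1 setting, among them oxidative phosphorylation (-0.07, and 0.03 without TI replicate 1), apoptosis (-0.04, and 0.04 without TI replicate 2), CD40 and NF-kB (-0.11, and 0.03 with the covariate) and MHC class II (-0.01, and 0.08 with the covariate). Those of plasma cell fate, ER folding, ER degradation, import, Golgi, germinal centre, MYC targets, proteasome and DNA replication kept theirs, as did the kappa probe sets. Signals near the floor limit the rest, since 30.1% of values are 0 or below and no fold is known there beyond a bound.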

Other observations

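Several called genes belong to none of the groups above. Pfn1, the actin-binding protein profilin, read 1139 and 1343 in TI, against 471 and 494 in TD (2.56-fold, limma adjusted p = 0.028). Stk40, a kinase-like protein that inhibits NF-kB, read 1103 and 1406 in TI, against 540 and 493 in TD (2.41-fold, limma adjusted p = 0.035), with TD day 10 arrays between, at 831 and 884. Mcoln2, an endolysosomal cation channel that B cells express, read 171 and 230 in TI, against 85 and 45 in TD, at least 2.39-fold (limma adjusted p = 0.037). Psen2, a catalytic subunit of gamma-secretase, read 218 and 216 in TI, against 84 and 108 in TD (2.28-fold, limma adjusted p = 0.035). Ifi27l2a, an interferon-induced gene, read 530 and 595 in TI, against 236 and 245 in TD (2.34-fold, limma adjusted p = 0.035), and resting arrays lay above both at 873 and 733. On the lower side, Psip1, a chromatin reader, read 81 and 53 in TI, against 197 and 280 in TD, at least 2.90-fold (limma adjusted p = 0.028). The histone chaperone gene Nap1l1 read 46 and -7 in TI, against 211 and 222 in TD, at least 2.67-fold (limma adjusted p = 0.044), and the chaperonin subunit Tcp1 read 59 and 23 in TI, against 167 and 205 in TD, at least 2.28-fold (limma adjusted p = 0.032). These genes were picked after their values were seen.

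Of 664 probe sets whose name marks a family of like sequences 3.01% were called, of 122 with the mark g 3.28%, of 114 with the mark i 2.63%, of 229 with the mark s 1.75%, of 465 with the mark r 0.645%, and of 5659 with no such mark 1.25%. These shares were not tested against each other.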
